A study of Homo sapiens with 12 samples.

Results

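The 5 genes described here, ULBP1, ULBP2, ULBP3, MICA and MICB, encode ligands of NKG2D, and they were taken by symbol from the 26485 symbols counted in every library. ULBP1 was chosen by its large difference in read count between CH223191 and DMSO, which is therefore given as a description, and the other 4 are set beside it as members of the same family. All 5 had enough reads to be among the 13619 genes tested. DLD1, a human cell line grown from a colon cancer, was exposed for 1 h to TCDD at 10 µM, kynurenine (labelled Kyn) at 10 µM, CH223191 (labelled CH) at 10 µM, or the vehicle DMSO, with 3 libraries in each of the 4 groups and 12 in all. TCDD is a dioxin and a strong agonist of the aryl hydrocarbon receptor (AHR), kynurenine is a breakdown product of tryptophan that can also activate AHR, and CH223191 is an antagonist of that receptor. No label ties a library to its own culture, and p-values then measure only the spread between libraries, which may be technical.

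NKG2D is an activating receptor of natural killer cells and of some T cells, and it binds surface proteins that healthy epithelium shows little of and stressed, infected or transformed cells show more of. MICA and MICB are transmembrane proteins related to HLA class I molecules, while the ULBP proteins are smaller relatives, several of which are held in the membrane by a lipid anchor. ATF4, a transcription factor of the integrated stress response, has been described as an activator of ULBP1, and heat shock factor HSF1 as an activator of MICA and MICB. The counts here are of RNA in the cells that carry the ligands and say nothing of protein at the surface.

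The 5 genes lie in 2 places on chromosome 6 (hg38, gene models of GENCODE 44). On the long arm, ULBP2 is at 149942014 to 149949235 and ULBP1 at 149963943 to 149973715, both on the plus strand, and ULBP3 is at 150061053 to 150069121 on the minus strand. In the HLA region of the short arm, MICA is at 31399784 to 31415315 and MICB at 31494881 to 31511124, both on the plus strand. The gene models have 5 merged exons in each ULBP gene, 8 in MICA and 7 in MICB. No other gene model overlaps ULBP1, ULBP2 or ULBP3. Those that overlap MICA and MICB are of non-coding RNAs that were not counted, among them MICB-DT on the opposite strand, with 55 exon bases in common with MICB. Whether reads were counted by strand is not given in the sources used here, and without strand, reads of MICB and MICB-DT over those bases cannot be told apart.

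The promoter windows below are shown because these 4 genes cover the large rise (ULBP1), a change close to the threshold (ULBP2) and the joint fall of a paralog pair (MICA and MICB) with CH223191. Each runs 5′ to 3′ from 250 bases before to 50 bases after the gene's start (RefSeq, GRCh38.p14), at chr6:149963693-149963992 for ULBP1, chr6:149941764-149942063 for ULBP2, chr6:31403345-31403644 for MICA and chr6:31497895-31498194 for MICB, all on the plus strand. For MICA and MICB the RefSeq start lies inside the GENCODE gene model. Capitals mark matches to the motifs described in the next paragraph.
ULBP1: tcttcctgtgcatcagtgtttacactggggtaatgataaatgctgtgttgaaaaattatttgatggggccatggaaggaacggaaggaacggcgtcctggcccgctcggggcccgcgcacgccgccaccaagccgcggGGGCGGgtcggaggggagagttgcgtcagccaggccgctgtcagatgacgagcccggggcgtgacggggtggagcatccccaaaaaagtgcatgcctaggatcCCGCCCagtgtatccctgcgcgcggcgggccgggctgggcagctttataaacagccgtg
ULBP2: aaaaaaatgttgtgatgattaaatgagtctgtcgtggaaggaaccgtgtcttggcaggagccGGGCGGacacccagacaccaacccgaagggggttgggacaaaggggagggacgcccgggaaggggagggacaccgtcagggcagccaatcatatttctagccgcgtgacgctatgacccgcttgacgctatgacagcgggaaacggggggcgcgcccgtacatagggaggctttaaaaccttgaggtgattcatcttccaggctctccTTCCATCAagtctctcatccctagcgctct
MICA: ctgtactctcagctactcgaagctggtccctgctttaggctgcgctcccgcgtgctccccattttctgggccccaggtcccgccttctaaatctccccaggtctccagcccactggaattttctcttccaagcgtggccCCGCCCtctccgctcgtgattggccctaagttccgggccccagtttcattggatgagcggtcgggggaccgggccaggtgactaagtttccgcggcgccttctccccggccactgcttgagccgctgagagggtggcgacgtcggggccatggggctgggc
MICB: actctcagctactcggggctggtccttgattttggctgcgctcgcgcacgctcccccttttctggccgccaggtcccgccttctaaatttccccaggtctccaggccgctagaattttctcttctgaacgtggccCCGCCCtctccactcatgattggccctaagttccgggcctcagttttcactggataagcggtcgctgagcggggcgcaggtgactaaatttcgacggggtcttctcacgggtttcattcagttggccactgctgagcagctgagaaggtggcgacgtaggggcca

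Motifs were searched on both strands in the windows of the 5 genes and in all 35116 windows of the table. The GC box bound by SP1 (GGGCGG) occurred 2 times for ULBP1, 1 time for ULBP2, 6 times for ULBP3, 1 time for MICA and 1 time for MICB, and 44.95% of all windows held it. The composite site of ATF4 with C/EBP proteins (TGATGNAA) occurred 1 time for ULBP2, on the minus strand, and 0 times for the other 4. It was held by 3.62% of all windows. Only exact matches were counted. The ULBP1 window holds ttgcgtca, which differs by 1 base from this motif on the minus strand and is not counted. Whether such near matches act as sites was not tested. The AHR response element (TNGCGTG, in 5.51% of all windows) and the cyclic AMP response element (TGACGTCA, 1.85%) had 0 matches in these 5 windows. The E box (CACGTG, 7.26%) and the E2F site (TTTGGCGC, 0.65%) also had 0. The pair of heat shock units was searched in only 1 order (TTCNNGAA, 7.74%), again with 0 matches. The MICA and MICB windows each hold gaattttc, which has these units in the opposite order. That order was not searched for, and whether it acts as a site was not tested. The MICA and MICB windows were alike, with 78.2% identical columns in a global alignment, against 46.3 to 53.8% for the other 9 pairs of windows.

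Reads that fit more than 1 place were kept apart in the files and not counted on any gene. Of the 3162 distinct 50-base stretches in ULBP1 transcripts, 257 (8.13%) also occurred in transcripts of another gene, 212 of them in RAET1K and 120 in ULBP3. The share was 32.6% for ULBP2, mostly with its close relative RAET1L, 11.1% for ULBP3, 1.86% for MICA and 2.86% for MICB. The share of ULBP2 was the largest of the 5.

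Library depth was 21397703 to 28247146 reads on named genes (median 26666641), and 7.54 to 9.66% of the reads placed at 1 site lay in no gene. Kynurenine replicate 1 stood apart from its group, with count variances of 4.64 and 4.60 times Poisson noise against replicates 2 and 3, and 1.76 between these. DMSO replicate 1 stood apart less far, at 3.94 and 3.15 against replicates 2 and 3, and 2.57 between these. CH223191 replicate 3 was at 3.02 and 2.48 against replicates 1 and 2, and 1.82 between these. The cells had transcripts of epithelium, with summed levels of 8998 to 10040 CPM (the read count relative to the scaled library total) over 11 markers of colon epithelium, led by KRT8, KRT18 and EPCAM. Of the 11, 2 averaged under 1 CPM, CDX1 and GPA33. In DMSO, VIL1 and KRT20 were low, at 2.33 and 2.73 CPM, while the intestinal genes CDX2 and CDH17 stood at 122 and 100 CPM. All 10 markers of NK and T cells averaged under 1 CPM, CD3D and GNLY had no read, and their summed level was 0.299 to 1.03 CPM. Summed levels were 0.480 to 1.26 CPM for 8 fibroblast markers, with DCN at 0, and at most 4.11 CPM for 8 endothelial markers, with KDR and EMCN at 0. Treatment labels were checked by CYP1A1, the classical AHR target, which averaged 428 ± 15.9 CPM with TCDD, 10.1 ± 1.01 CPM with kynurenine and 0.520 ± 0.188 CPM with CH223191, against 3.22 ± 0.142 CPM in DMSO (SD, n = 3 each). Of the other AHR targets, CYP1B1 and TIPARP rose with TCDD (log2 fold changes of 2.36 and 1.72) and fell with CH223191 (-1.33 and -0.40), and AHRR, the AHR repressor, also rose with TCDD and fell with CH223191 (-1.34). With kynurenine CYP1B1 (-0.37) and TIPARP (-0.21) fell, and the TIPARP call ended with only the 2 groups compared, and when any 1 DMSO library or kynurenine replicate 1 or 2 was dropped (highest adjusted p = 0.15).

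In DMSO the 5 ligands ordered by length-scaled level as MICB, MICA, ULBP2, ULBP3 and ULBP1. Per kilobase of exon they stood at 8.39 ± 0.294 CPM for MICB, 7.75 ± 0.0426 for MICA, 6.47 ± 0.219 for ULBP2, 3.05 ± 0.392 for ULBP3 and 1.92 ± 0.112 for ULBP1 (SD, n = 3). Each gap between neighbours in that order was larger than their 2 SDs together. With CH223191 the order was ULBP2 and ULBP1, at 7.62 ± 0.583 and 7.61 ± 0.297 CPM per kilobase, then MICB at 6.99 ± 0.192, MICA at 5.97 ± 0.198 and ULBP3 at 2.90 ± 0.246. ULBP1 and ULBP2 did not differ there beyond their spread, nor did ULBP2 and MICB. These lengths come from GENCODE 44, not from the annotation used for the counting, so the order between genes is approximate. Reads that fit more than 1 place were not counted, and the share of 50-base stretches found elsewhere differed between the genes. It was 32.6% for ULBP2, against 1.86% for MICA and 2.86% for MICB. The level of ULBP2 may therefore be too low beside theirs, and its place in the order is uncertain. The SDs do not cover this.

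**Figure D1:**
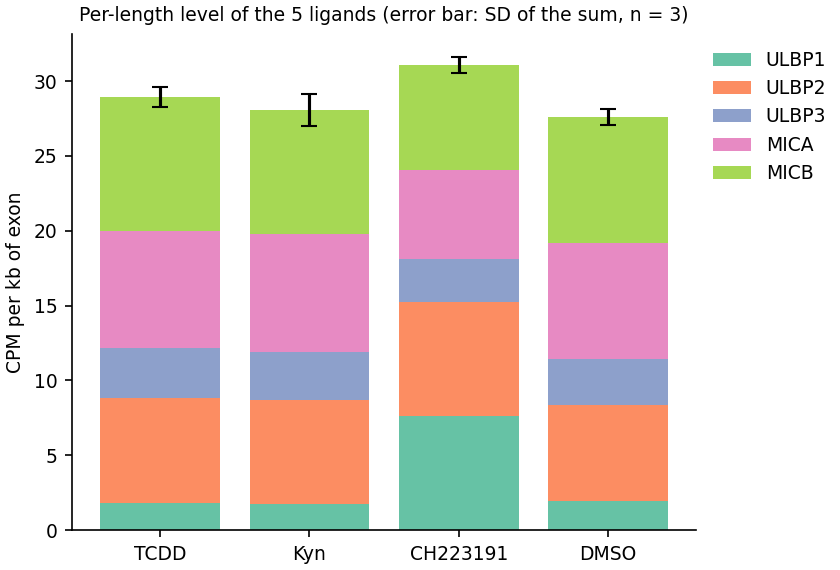
Mean level of each ligand in CPM per kilobase of exon, stacked for TCDD, kynurenine (Kyn), CH223191 and DMSO, with the SD of the summed level over 3 libraries. The summed level was 31.1 with CH223191 and 27.6 in DMSO, and ULBP1 made up 24.5% of it with CH223191 and 6.96% in DMSO.

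Added up per kilobase, the 5 ligands reached 28.9 ± 0.669 CPM with TCDD, 28.1 ± 1.07 with kynurenine, 31.1 ± 0.508 with CH223191 and 27.6 ± 0.548 in DMSO (SD, n = 3). ULBP1 made up 23.9 to 25.3% of that sum in the CH223191 libraries, against 6.73 to 7.33% in the DMSO libraries. Its share was 5.32 to 6.80% with TCDD and 5.84 to 6.90% with kynurenine. These sums and shares carry the same limits of gene length and uncounted reads.

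The first comparison sets the antagonist CH223191 against the vehicle. ULBP1 stood 3.96-fold higher, MICA and MICB fell to 0.772 and 0.832 of their DMSO level, ULBP2 was slightly higher without passing the test, and ULBP3 did not pass either.

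ULBP1, an anchored ligand, had 24.0, 25.5 and 23.7 CPM in the CH223191 libraries (668, 715 and 516 reads), against 5.91, 6.58 and 6.02 CPM in the DMSO libraries (155, 182 and 164 reads). The lowest CH223191 library was more than 3 times the highest DMSO library. The log2 fold change was 1.98 ± 0.0845 SE, placing ULBP1 at rank 13 of 13619 tested genes and at rank 7 of the 12112 that averaged 1 CPM or more. In bulk RNA, more cells with the transcript and more of it per cell cannot be told apart. No test is given, since this difference is what ULBP1 was picked for.

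MICA, a transmembrane ligand, had 23.8, 22.9 and 22.3 CPM with CH223191, against 29.7, 29.9 and 30.0 CPM in DMSO. All 3 CH223191 libraries lay below all 3 DMSO libraries. MICA fell, with a log2 fold change of -0.37 ± 0.0526 SE (edgeR adjusted p = 7.6e-07). MICB, its close paralog, had 18.9, 19.8 and 19.9 CPM with CH223191, against 22.7, 24.3 and 23.5 CPM in DMSO, again without overlap. MICB fell as well, with a log2 fold change of -0.27 ± 0.0584 SE (edgeR adjusted p = 5.2e-04).

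ULBP2, another anchored ligand, had 10.9, 10.2 and 9.38 CPM with CH223191, against 8.54, 8.97 and 8.41 CPM in DMSO. The libraries did not overlap, and the log2 fold change was 0.24 ± 0.0975 SE, with an edgeR adjusted p of 0.056 that just missed the threshold. It passed under 4 of 7 other settings and when CH223191 replicate 3 or any 1 of the kynurenine libraries was left out (adjusted p of 0.033 to 0.23 over the 12 such fits). ULBP3 had 8.46, 8.71 and 9.89 CPM with CH223191, against 9.08, 8.53 and 10.9 CPM in DMSO, and these ranges overlapped. Its log2 fold change was -0.08, with a 95% interval of -0.27 to 0.11 (edgeR adjusted p = 0.55).

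Of the 4 members given a test with CH223191, 2 were lower and 0 higher at an adjusted p under 0.05, and 16.9% of all tested genes were called lower and 15.9% higher (32.8% in all). For 3 of these 4 the CH223191 and DMSO libraries did not overlap, and they did not overlap for 43.4% of all tested genes. MICA ranked 599 and MICB 1108 of 13619 from the largest fall.

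**Figure D2:**
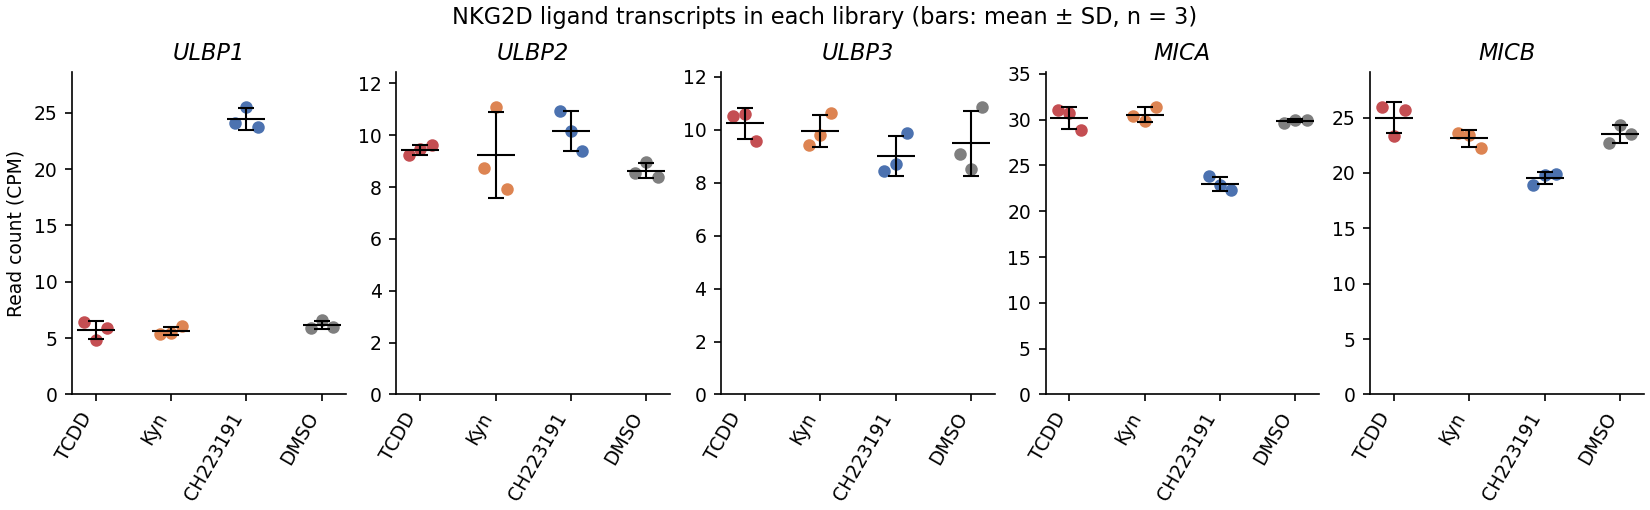
Read count in CPM of the 5 ligands in each library (points), with the mean and SD (bars, n = 3), for TCDD, kynurenine (Kyn), CH223191 and DMSO on axes that start at 0. The CH223191 libraries stand at 23.7 to 25.5 CPM for ULBP1, above all others, and lie below all others for MICA and MICB.

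TCDD against DMSO shows the response to a strong AHR agonist. None of the 5 ligands passed in this fit: 0 of 5 were called by edgeR, against 11.7% of all tested genes (5.91% higher and 5.83% lower), with 0 of the 5 at an unadjusted p under 0.05 and 0 of the 5 called by DESeq2. ULBP1 had 6.47, 4.84 and 5.88 CPM with TCDD, against 5.91, 6.58 and 6.02 CPM in DMSO, and the groups overlapped. Its log2 fold change was -0.10, with a 95% interval of -0.32 to 0.11 (edgeR adjusted p = 0.59). The value was 0.0008 without TCDD replicate 2, the lowest library.

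ULBP2 had 9.24, 9.47 and 9.62 CPM with TCDD, all above the DMSO libraries at 8.41 to 8.97 CPM. This was the only one of the 5 whose TCDD and DMSO libraries did not overlap, which held for 27.8% of all tested genes, and its log2 fold change was 0.13 (edgeR adjusted p = 0.46). MICA had 31.0, 30.8 and 28.9 CPM with TCDD and MICB 26.0, 23.4 and 25.7 CPM, overlapping with DMSO in each case. The 95% intervals of the log2 fold change were -0.09 to 0.12 for MICA, -0.02 to 0.21 for MICB and -0.08 to 0.30 for ULBP3.

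Kynurenine, the endogenous agonist, was compared with DMSO in the same way, and 0 of the 5 ligands passed by edgeR, against 0.294% of all tested genes (0.154% higher and 0.14% lower), with 0 of the 5 at an unadjusted p under 0.05 and 0 of the 5 called by DESeq2. ULBP1 had 5.34, 5.50 and 6.06 CPM with kynurenine, against 5.91 to 6.58 CPM in DMSO, and its log2 fold change was -0.14 with a 95% interval of -0.35 to 0.08 (edgeR adjusted p = 0.90). ULBP2 varied most within the kynurenine group, at 8.73, 11.1 and 7.92 CPM, and its log2 fold change of 0.10 was -0.05 without kynurenine replicate 2, the highest library. ULBP3 had 9.44, 9.80 and 10.6 CPM, MICA 30.4, 29.8 and 31.4 CPM and MICB 23.6, 23.4 and 22.3 CPM. For all 5 the kynurenine and DMSO libraries overlapped, while they did not for 11.4% of all tested genes. Without kynurenine replicate 1 the 5 values lay between -0.10 and 0.15, with 0 calls.

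**Figure D3:**
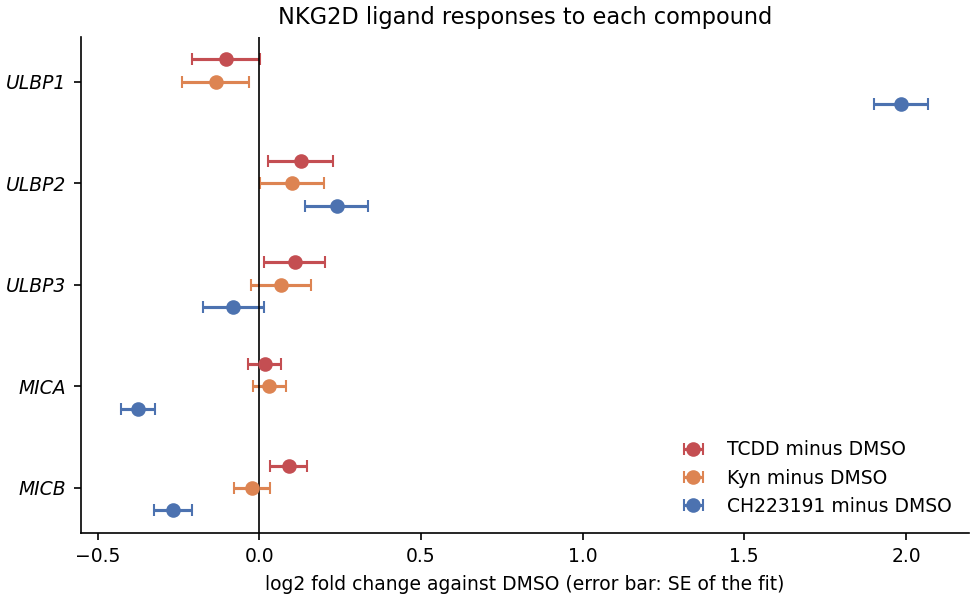
Log2 fold change against DMSO, with its SE from the fit over 12 libraries, of each ligand (rows) for TCDD, kynurenine (Kyn) and CH223191. ULBP1 stands at 1.98 with CH223191, where MICA and MICB lie at -0.37 and -0.27, and the TCDD and kynurenine values of the 5 genes lie between -0.14 and 0.13.

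The compounds were also set against each other at the same dose and time. MICA had 30.2 ± 1.19 CPM with TCDD and 23.0 ± 0.765 CPM with CH223191 (SD, n = 3), a log2 difference of 0.39 ± 0.0533 SE (edgeR adjusted p = 3.2e-07). MICB had 26.0, 23.4 and 25.7 CPM with TCDD and 18.9, 19.8 and 19.9 CPM with CH223191, a log2 difference of 0.36 ± 0.0588 SE (edgeR adjusted p = 8.6e-06). Kynurenine had log2 differences over CH223191 of 0.41 for MICA (edgeR adjusted p = 1.7e-07) and 0.24 for MICB (0.0014). In both comparisons 2 of the 4 members given a test were higher with the agonist and 0 lower, while 37.1% of all tested genes were called between TCDD and CH223191 (19% higher and 18.1% lower with TCDD) and 33% between kynurenine and CH223191 (16.6% higher and 16.4% lower with kynurenine). For 2 of these 4, MICA and MICB, the libraries did not overlap in each of the pairs, against 47.3% of all tested genes between TCDD and CH223191 and 43.5% between kynurenine and CH223191. These comparisons share the CH223191 libraries with each other and with the comparison against DMSO, so they are not separate evidence.

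For ULBP2 and ULBP3 no difference between an agonist and CH223191 passed. The 95% intervals of the log2 difference for TCDD over CH223191 were -0.31 to 0.09 for ULBP2 and -0.0032 to 0.38 for ULBP3, and for kynurenine over CH223191 they were -0.34 to 0.06 and -0.04 to 0.34. ULBP1 is left as a description there too, at 5.73 ± 0.823 CPM with TCDD, 5.63 ± 0.378 CPM with kynurenine and 24.4 ± 0.953 CPM with CH223191. Between TCDD and kynurenine 0 of 5 passed by edgeR, against 9.19% of all tested genes (5.1% higher and 4.09% lower with TCDD), with 0 of the 5 at an unadjusted p under 0.05 and 0 of the 5 called by DESeq2. The largest of those log2 differences was that of MICB, at 0.11 with a 95% interval of -0.0022 to 0.23.

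The other NKG2D ligand genes, RAET1E, RAET1G and RAET1L, sit in the ULBP cluster. RAET1E, which encodes a transmembrane ligand also called ULBP4, had 4.97, 4.85 and 4.92 CPM with CH223191, against 6.86, 7.12 and 6.13 CPM in DMSO, with no overlap. It fell, with a log2 fold change of -0.45 ± 0.102 SE (edgeR adjusted p = 7.7e-04), in the direction of MICA and MICB and not of its neighbour ULBP1. RAET1L, the close relative of ULBP2, had 2.12, 1.86 and 1.70 CPM with CH223191, against 1.45, 1.30 and 1.54 CPM in DMSO, and its log2 fold change of 0.41 did not pass (adjusted p = 0.11). RAET1G, with 2 to 11 reads per library, had too few reads to be tested. Of the 2 tested genes of this list 1 was called with CH223191, against 32.8% of all tested genes. With TCDD and with kynurenine, 0 of the 2 were called, against 11.7% and 0.294% of all tested genes.

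The receptor genes had few or no reads. KLRK1, which encodes NKG2D, had 0 reads in the 12 libraries, which allows up to 0.107 to 0.138 CPM per library (3 reads, counting error only). HCST, which encodes its signalling adaptor, had 2 to 12 reads per library.

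Genes with a model within 200 kb of a ligand gene were looked at for shared movement along the chromosome. In the ULBP cluster 9 neighbours were counted and 7 tested. With CH223191, 1 rose and 2 fell, and 32.8% of all tested genes were called. RAET1E and PPP1R14C, an inhibitor of protein phosphatase 1 (-0.51 on the log2 scale, adjusted p = 0.0012), were lower, and RAET1K, a non-coding locus of the family, was higher. RAET1K had 2.27, 2.14 and 2.16 CPM with CH223191, against 1.37, 1.08 and 1.36 CPM in DMSO (log2 fold change 0.78 ± 0.199 SE, adjusted p = 0.0023). It is also the locus that shares most 50-base stretches with ULBP1, and whether reads of ULBP1 fell on it was not tested.

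Around MICA and MICB 31 neighbours were counted and 17 tested, and with CH223191 3 rose and 0 fell, while 15.9% of all tested genes were called higher and 16.9% lower. The median log2 fold change of the 17 was 0.06. Those called were NFKBIL1, an IκB-like nuclear protein, with a log2 fold change of 0.43 at 19.8 ± 0.351 CPM with CH223191 against 14.7 ± 0.751 CPM in DMSO, LTB, the lymphotoxin beta subunit (0.29), and the cytokine gene TNF (1.66), which held 0.411 CPM with CH223191 and 0.124 CPM in DMSO. TNF no longer passed without DMSO replicate 1 or 2 or CH223191 replicate 2 or 3 (highest adjusted p = 0.11), and its log2 fold change was 1.23 to 2.36 with a library left out. DESeq2 gave TNF no adjusted p. With TCDD, 1 neighbour in all was called, LRP11 (0.14), which missed the threshold when DMSO replicate 1, TCDD replicate 1 or TCDD replicate 2 was left out (up to an adjusted p of 0.16). With kynurenine 0 of the 24 tested neighbours were called by edgeR. Over all tested genes 11.7% were called with TCDD and 0.294% with kynurenine.

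Likeness of pattern was measured by the correlation of log2 CPM over the 12 libraries, over the 12107 other genes that averaged 1 CPM or more. The 5 genes most like ULBP1 were AARS, the cytosolic alanyl-tRNA synthetase (r = 0.995), FAM129A, also called niban (0.994), SLC6A9, a glycine transporter (0.993), CLIC4, a chloride intracellular channel protein (0.992), and MTHFD2, a mitochondrial enzyme of one-carbon metabolism (0.992). These coefficients describe 1 step, from the 3 CH223191 libraries to the other 9, and the size of the step differed. SLC6A9 had 42.9 ± 0.826 CPM with CH223191 against 9.18 ± 0.723 CPM in DMSO (log2 fold change 2.22), near the size of ULBP1, while AARS had 230 ± 6.81 CPM against 135 ± 2.41 CPM (0.78).

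The genes most like MICA were RAB11FIP3, an effector of the endosomal GTPase RAB11 (r = 0.986), and SLC39A1, a zinc transporter (0.980), with log2 fold changes of -0.40 and -0.30 with CH223191. Those most like MICB were TMPO, a protein of the nuclear lamina (0.976), and PPP1CC, a catalytic subunit of protein phosphatase 1 (0.976), at -0.07 and -0.13. The change of TMPO was not called (edgeR adjusted p = 0.074). For ULBP2 they were SESN1, a sestrin (0.879), and C22orf39 (0.866), and for ULBP3 DDOST, a subunit of the oligosaccharyltransferase (0.857), and PRCP, a lysosomal carboxypeptidase (0.850). With CH223191, SESN1 was called higher (edgeR adjusted p = 0.022, up to 0.09 with a library left out). C22orf39, DDOST and PRCP were not called (edgeR adjusted p = 0.054, 0.37 and 0.32). Between members the coefficient was 0.836 for MICA with MICB, -0.971 for ULBP1 with MICA and 0.458 for ULBP1 with ULBP2, over the same 12 libraries. Those with ULBP1 carry the step of the CH223191 libraries that ULBP1 was picked for, so they are a description only.

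**Figure D4:**
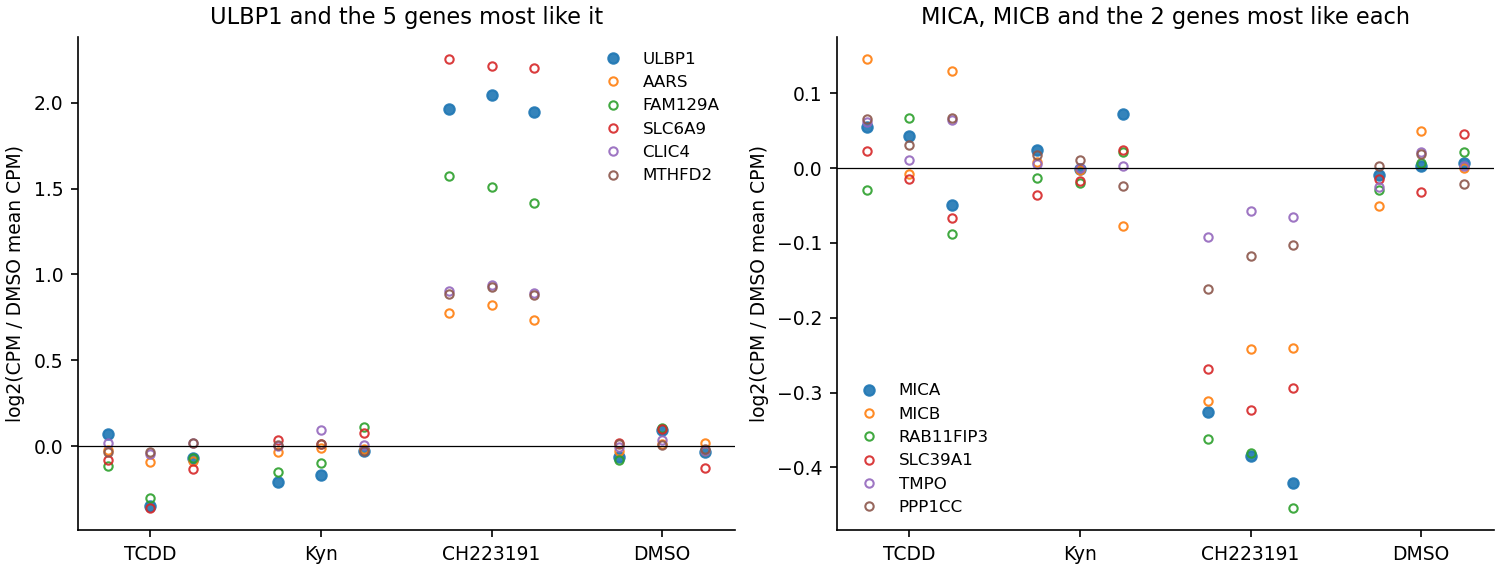
Log2 ratio of each library's CPM to the DMSO mean, for ULBP1 and the 5 genes most like it (left) and for MICA, MICB and the 2 genes most like each (right), with 3 points a gene in TCDD, kynurenine (Kyn), CH223191 and DMSO. The CH223191 libraries stand apart in both panels, upwards on the left and downwards on the right.

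Of 17 genes described as regulators of NKG2D ligands, all tested, 3 rose and 4 fell with CH223191, with a median log2 fold change of -0.03. These counts are near the shares over all tested genes, of which 15.9% were called higher and 16.9% lower. ATF4, the stress-response factor, had 535, 514 and 521 CPM with CH223191, against 284, 280 and 260 CPM in DMSO, without overlap. Its log2 fold change was 0.93 ± 0.0362 SE (edgeR adjusted p = 2.2e-21). The cell-cycle factor E2F1 fell (-0.33, adjusted p = 9.8e-07), as did the DNA damage kinase ATR (-0.18, 0.0036). The count of falls was 2 with library totals alone and without DMSO replicate 1, DMSO replicate 3 or CH223191 replicate 1.

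Of 25 target genes of ATF4, 24 were tested, and with CH223191 21 rose and 1 fell, with a median log2 fold change of 0.90. Over all tested genes 15.9% were called higher and 16.9% lower. The list was chosen with earlier results of these data known. Those of smallest adjusted p were DDIT4, an inhibitor of mTORC1 (2.39), ASNS, asparagine synthetase (1.41), PSAT1, an enzyme of serine synthesis (1.13), and CHAC1, which degrades glutathione (1.94). CHAC1 had 53.3, 53.8 and 52.7 CPM with CH223191, against 14.6, 14.0 and 13.1 CPM in DMSO, a rise close in size to that of ULBP1. The member that fell was PPP1R15A, a regulatory subunit of protein phosphatase 1 (-0.26), chosen after its values were seen. Whether ATF4 bears on ULBP1 in these cells was not tested.

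With TCDD, ATF4 stood at 266 ± 5.46 CPM, against 275 ± 12.8 CPM in DMSO (edgeR adjusted p = 0.48), and 3 of the 24 target genes rose and 3 fell. The shares over all tested genes were 5.91% higher and 5.83% lower. DDIT4 (0.58), PPP1R15A (0.37) and SLC7A11, the cystine transporter (0.37), were higher, and PHGDH, an enzyme of serine synthesis (-0.18), was lower. Of the regulators 2 rose, ATM, a DNA damage kinase (0.28), and SP1, the GC box factor (0.13), and 2 fell, among them MYC (-0.20). SP1 missed the threshold when any of DMSO replicates 1 and 3 and TCDD replicates 1 and 3 was left out (up to an adjusted p of 0.21). The count of falls was 1 without TCDD replicate 3. With kynurenine 0 of the 24 ATF4 targets and 0 of the 17 regulators passed by edgeR, against 0.294% of all tested genes.

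**Figure D5:**
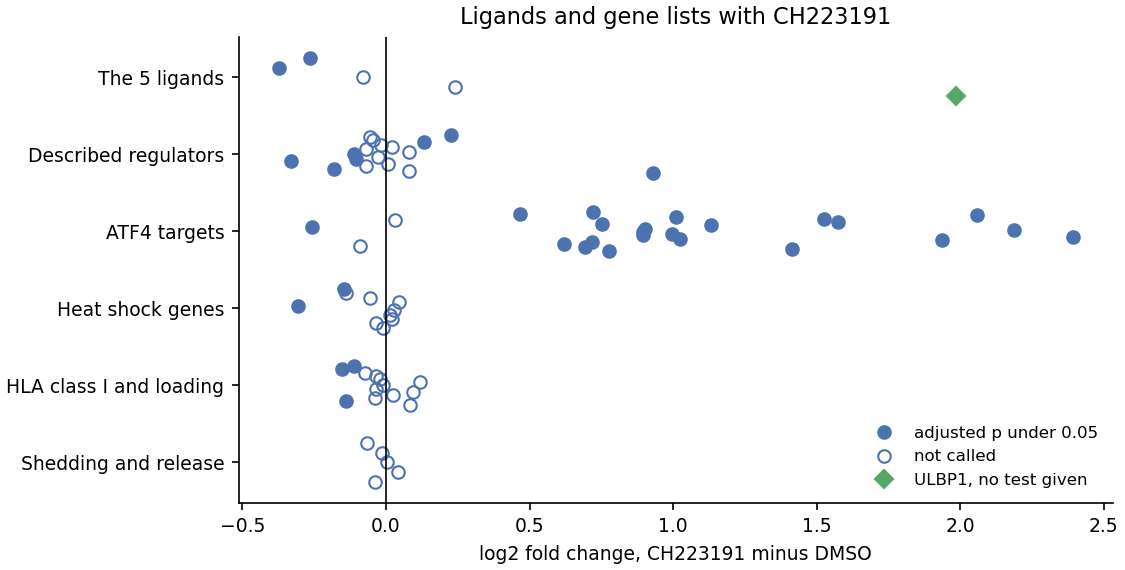
Log2 fold change with CH223191 against DMSO of the 5 ligands and of the tested genes of 5 lists, filled where the adjusted p was under 0.05, with ULBP1 as a diamond since it has no test. The ATF4 targets lie to the right, with 21 of 24 called higher, against 15.9% of all tested genes. The genes of the other lists lie on both sides of 0, with ATF4 at 0.93 and E2F1 at -0.33 among the regulators and HSPA8 at -0.31 among the heat shock genes.

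Heat shock genes, set beside MICA and MICB, had 0 of 10 higher and 2 lower with CH223191, while 15.9% of all tested genes were called higher and 16.9% lower. The 2 were the chaperones HSPA8 (-0.31, adjusted p = 9.5e-09) and HSPH1 (-0.14, 5.9e-04). With TCDD 4 of 10 rose and 0 fell, against 5.91% of all tested genes called higher and 5.83% lower. Those that rose were HSPH1 (0.14), HSPA1B (0.18), HSP90AA1 (0.11) and HSPA8 (0.12), while MICA and MICB did not pass. HSPA1B has a nearly identical copy in HSPA1A, and reads of the 2 may not have been fully separated. HSPA8 and HSP90AA1 no longer passed without DMSO replicate 1 or TCDD replicate 3, which left a count of 2, and HSPA8 also missed the threshold without TCDD replicate 1 (adjusted p up to 0.16 for HSPA8 and 0.14 for HSP90AA1). With kynurenine HSPA1B alone of the 10 rose (0.25), and 0.154% of all tested genes were called higher.

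Enzymes that shed ligands from the surface showed no call. Of ADAM9, ADAM10, ADAM17, MMP14 and PDIA6, the 5 of 7 listed genes with enough reads, 0 were called by edgeR with any of the 3 compounds. Over all tested genes 32.8% were called with CH223191, 11.7% with TCDD and 0.294% with kynurenine. ADAM10, a metalloproteinase that cleaves MICA, had 383 ± 4.89 CPM with CH223191 and 393 ± 6.12 CPM in DMSO (adjusted p = 0.40).

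Among other ligands of activating NK receptors, 5 of 9 were tested, and with CH223191 1 rose and 2 fell. Over all tested genes 15.9% were called higher and 16.9% lower. PVR, a ligand of DNAM-1 and TIGIT, had 113, 107 and 109 CPM with CH223191, against 130, 126 and 132 CPM in DMSO, and fell by 0.24 on the log2 scale (adjusted p = 2.4e-06). NECTIN2, listed as PVRL2, which binds the same receptors, also fell (-0.17, adjusted p = 2.7e-04). NCR3LG1, which encodes B7-H6, the ligand of NKp30, was higher (0.16, adjusted p = 0.044), but the call ended with DESeq2 and without DMSO replicate 1 or CH223191 replicate 1 or 2 (highest adjusted p = 0.34). With TCDD and with kynurenine 0 of the 5 passed by edgeR, against 11.7% and 0.294% of all tested genes.

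Of the ligands of inhibitory receptors, 5 of 6 were tested. With CH223191 1 fell, CD47, the ligand of SIRPα (-0.20, adjusted p = 1.9e-04), and with TCDD 1 fell, CDH1, which encodes E-cadherin, the ligand of KLRG1 (-0.13, adjusted p = 0.0092). Over all tested genes 16.9% were called lower with CH223191 and 5.83% with TCDD. Of the HLA class I and peptide-loading genes 13 of 14 were tested, and with CH223191 0 rose and 3 fell. The shares over all tested genes were 15.9% higher and 16.9% lower. They were the chaperone CALR (-0.14), the peptide transporter subunit TAP2 (-0.15) and tapasin, TAPBP (-0.11). The TAPBP call ended with library totals alone and without DMSO replicate 1 or 3 or CH223191 replicate 2 or 3 (highest adjusted p = 0.17). HLA-B, HLA-C and HLA-E, class I heavy chains that NK receptors read, had adjusted p-values of 0.12 to 0.85 with CH223191. With TCDD TAPBP fell as the only gene of this list (-0.14), a call that ended without DMSO replicate 3 (0.060). With kynurenine 0 of 13 passed by edgeR, against 0.294% of all tested genes.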

How the data were processed

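Poly(A) RNA of 12 DLD1 libraries was analysed from the read counts per gene symbol that the authors deposited. Per the submitters' processing notes, reads were handled with Trim Galore, STAR 2.7.2b, SAMtools 1.9 and HTSeq on hg38. The protocol text names another STAR version and does not mention CH223191. Whether alternative HLA haplotypes were in the genome used is not given in the sources used here.

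Counts were fitted in R 4.3.3 with edgeR 4.0.16. Low genes were left out by filterByExpr (minimum count 10), libraries were scaled by TMM factors (0.988 to 1.02), and the quasi-likelihood F test was run from 1 fit to all 12 libraries that held the 4 groups as its terms. P-values were adjusted by Benjamini-Hochberg over the 13619 genes tested, and an adjusted p under 0.05 was a call. CPM uses the scaled totals, and log2 CPM a prior count of 2. The 95% intervals use the moderated degrees of freedom. ULBP1 was given no test in comparisons with the CH223191 libraries.

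The members and gene lists were chosen with earlier results of these data known. Named genes are the 5 members, the 5 genes most like ULBP1 and the 2 most like each other member, up to 4 called genes of smallest adjusted p per list and comparison with DMSO, and called neighbours within 200 kb. Some genes of the lists are counted but not reported here by name. Symbols were matched through RefSeq synonyms where the files use older ones.

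Numbers of genes called, log2 fold changes of the 5 members and those of most called genes named here were recomputed. The other settings were DESeq2 1.42.0, RLE factors, plain library totals, no low-count filter, and a filter that asked for 5 CPM in 3 libraries. Further fits used the replicate number as a block, took the 2 groups of a comparison alone, or left out each library in turn. Counts for the ATF4 targets, the regulators and the heat shock genes, with TCDD and CH223191, were added to the recomputed results after the data had been seen. Likeness, ranks, levels per kilobase and all other counts of listed genes and neighbours were not recomputed. On simulated data for CH223191 against DMSO (13500 genes), sets of 50 genes were given log2 changes of 0.25, 0.4, 0.8 or 2 in size, of which 62, 70, 88 and 98% were called. These genes were drawn at random over all levels and were few, while 32.8% of all tested genes were called in the data. The rates therefore do not give the share of such changes that would be called for the ligands. Promoter windows come from RefSeq (GRCh38.p14, 5 of 5 members matched).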

Additional observations from a re-analysis of the deposited data

How the results depend on the processing

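The falls of MICA and MICB with CH223191 kept their direction and their call under all 7 other settings and in all 12 fits with a library left out, at -0.40 to -0.35 for MICA and -0.29 to -0.24 for MICB with a library left out. The log2 fold change of ULBP1 with CH223191 was 1.98 to 2.01 under the other settings and 1.95 to 2.03 with a library left out. ULBP2 with CH223191 passed with library totals alone (0.26), with no low-count filter (0.24), with at least 5 CPM in 3 libraries (0.25) and with only the 2 groups compared (0.24), and ranged from 0.18 to 0.29 with a library left out. The cause was not tested.

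With a library left out, some values that did not pass in the full fit crossed 0 or the threshold. Against DMSO, the ranges were -0.20 to 0.0008 for ULBP1 and -0.0028 to 0.0465 for MICA with TCDD, -0.0508 to 0.20 for ULBP2, -0.0062 to 0.18 for ULBP3 and -0.0474 to 0.0031 for MICB with kynurenine, and -0.15 to 0.0277 for ULBP3 with CH223191. For TCDD over kynurenine they were -0.0679 to 0.13 for ULBP1, -0.0709 to 0.18 for ULBP2 and -0.0369 to 0.0148 for MICA. For kynurenine over CH223191 the range was -0.29 to -0.0443 for ULBP2, which passed without kynurenine replicate 2.

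The number of genes called with kynurenine was 40, and 65 with no low-count filter and 26 with only the 2 groups compared. With a library left out, the number was 805 to 1912 with TCDD (1599 in full, 851 without DMSO replicate 1, 1020 without DMSO replicate 3 and 805 without TCDD replicate 3) and 576 to 1323 between TCDD and kynurenine (1252 in full, 576 without TCDD replicate 3 and 658 without kynurenine replicate 1). Libraries with the same replicate number did not deviate together (correlation of deviations -0.055 to 0.037 in 18 pairs), and a fit with the replicate block changed no call of a member, with ULBP2 at 0.24 with CH223191 (edgeR adjusted p = 0.053). Precision was lower for the ULBP genes, which had fewer reads: with TCDD and kynurenine the SE of the log2 fold change was 0.0926 to 0.106 for ULBP1, ULBP2 and ULBP3, and 0.0503 to 0.0569 for MICA and MICB.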
